A study of Mus musculus with 8 samples.

Results

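The 41 genes described here belong to the interferon response and to MHC class I antigen presentation. They were chosen by gene symbol from 24394 symbols shared by all 8 tables, and all 41 were listed in every table. RNA was profiled in endothelial cells sorted from mouse brain by flow cytometry at postnatal day 8, with 4 libraries from each group. The YAPTAZ-ECKO libraries came from VE-cadherin-CreERT2 Yapf/f Tazf/f mice, in which a Cre recombinase that tamoxifen can activate is driven by the VE-cadherin promoter in endothelial cells and acts on floxed Yap and Taz alleles. The WT libraries came from wild type mice. All 8 are labelled C57BL/6J. The WT label names neither the Cre driver nor the floxed alleles, so their effects cannot be told apart from that of the deletion. Tamoxifen treatment is not given in the labels used here. The labels also leave unsaid if the 4 libraries of a group came from 4 mice, and a p-value then measures only the spread between samples, which may be technical.

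Type I interferons signal through the IFNAR1 and IFNAR2 receptor chains and interferon gamma through IFNGR1 and IFNGR2. Activated receptors lead to a complex of STAT2, a partner STAT protein and IRF9 that binds interferon-stimulated response elements (ISRE) and switches on antiviral genes, while interferon gamma acts more through IRF1 and raises MHC class I genes, peptide transporters and immunoproteasome subunits. MHC class I molecules carry peptides to the cell surface, where CD8 T cells read them, and brain endothelium is among the first cells that circulating lymphocytes meet. YAP and TAZ, encoded by Yap1 and Wwtr1, are co-activators that the Hippo kinases hold back.

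The deposited log2 values were returned to the linear scale and are called scaled reads, since their spacing is that of read counts multiplied by a factor for each library. The spacing of low values implied 6.64 to 13.6 M reads in YAPTAZ-ECKO libraries and 7.43 to 16.8 M reads in WT libraries. Wwtr1 stood at 348, 2608, 1261 and 1124 scaled reads in YAPTAZ-ECKO 1 to 4, against 8220, 5906, 6756 and 5650 in WT 1 to 4. Yap1 stood at 9.29, 605, 293 and 402 scaled reads in YAPTAZ-ECKO 1 to 4, against 2833, 1726, 1409 and 1887 in WT 1 to 4. No library of one group reached the other for either gene. Wwtr1 fell by 2.45 ± 0.41 on the log2 scale (SE; limma adjusted p = 0.0113), a call that 6 alternative settings and leaving out 3 of the libraries in turn did not keep, and the difference of Yap1, -2.39 ± 0.52 (SE), did not pass (limma adjusted p = 0.175). All 15 endothelial markers were above 0 in every library, and their summed CPM (scaled reads divided by the library total in M) lay at 16742 to 22481 in YAPTAZ-ECKO and 19143 to 20775 in WT. Summed Y-linked transcripts (Ddx3y, Eif2s3y, Kdm5d and Uty) lay at 486 to 1380 scaled reads in YAPTAZ-ECKO and 4.43 to 471 in WT, without overlap. What this contributes to the results below was not tested and cannot be told apart from the effect of the deletion.

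Regulatory sequence ties many of these genes together, and short stretches around the ISRE show what they share. The ISRE core was searched as GAAA, any 2 bases, GAAA on both strands, overlapping matches included, in the 300 bases from 250 before to 50 after each gene start (RefSeq, GRCm38.p6). Of the 41 genes, 34 had an entry, and 15 of these (44.1%) held the core, against 3.99% of 27025 genes in the table. The interferon gamma activated site, searched as TTC, any 3 bases, GAA, was held by 8 of 34 (23.5%), against 9.55% of all genes. A match is a description of letters, not a measured binding site. The stretches below are printed 5′ to 3′ on the strand of the gene, with ISRE core matches in capitals (read as TTTC, any 2 bases, TTTC where the match is on the other strand), for 3 genes at 0 in all libraries or all but 1 (Ifit1, Ifit3, Oas3) and 4 that were detected (Isg15, Rsad2, Bst2, B2m).
Ifit1, chr19:34640765-34640833, plus strand: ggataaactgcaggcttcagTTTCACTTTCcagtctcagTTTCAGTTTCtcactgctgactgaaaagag
Ifit3, chr19:34583353-34583436, plus strand: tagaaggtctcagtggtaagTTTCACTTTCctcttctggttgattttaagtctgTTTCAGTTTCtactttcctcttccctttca
Oas3, chr5:120777705-120777754, minus strand: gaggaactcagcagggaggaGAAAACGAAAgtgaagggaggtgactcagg
Isg15, chr4:156200855-156200916, minus strand: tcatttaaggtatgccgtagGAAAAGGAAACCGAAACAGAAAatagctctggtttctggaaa
Rsad2, chr12:26456543-26456592, minus strand: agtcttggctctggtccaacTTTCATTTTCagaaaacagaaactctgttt
Bst2, chr8:71537567-71537622, minus strand: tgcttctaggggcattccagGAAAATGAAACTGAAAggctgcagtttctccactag
B2m, chr2:122147528-122147577, plus strand: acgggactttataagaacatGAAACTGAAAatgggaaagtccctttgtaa
Isg15 holds 3 overlapping matches, Bst2 holds 2 that overlap, and Ifit1 and Ifit3 hold 2 each that do not. In these cells 7 of the 15 genes with the core and 10 of the 19 without it were above 0 in all 8 libraries. Of the 9 tested genes with the core, 6 had higher and 3 had lower values in YAPTAZ-ECKO, and of the 16 tested without it, 9 had higher and 7 had lower values.

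The design asks which transcripts differ between brain endothelial cells with endothelial deletion of Yap and Taz and WT cells. For these genes the answer was that no difference passed the test. Across all 8706 genes tested with limma on log2(scaled reads + pseudocount), with a pseudocount of 2 to the power 7, 0 rose and 3 fell in YAPTAZ-ECKO at a Benjamini-Hochberg adjusted p under 0.05, a share of 0.0345%. Among the 28 of the 41 genes that could be tested, 0 rose and 0 fell, and 0 had an unadjusted p under 0.05, against 5.47% of all tested genes. The lowest adjusted p was 0.928 (limma, for Ifi44, Tapbp, Psmb9 and H2-K1). Higher values in YAPTAZ-ECKO were found for 16 and lower values for 12 of the 28, where 43.1% of all tested genes had higher values. The number higher was 12 of 28 with upper quartile scaling, 13 of 28 with a pseudocount of 1 and 12 of 27 without WT 2. The median log2 difference of the 28 was 0.09, beside -0.09 over all tested genes, and turned to -0.10 with upper quartile scaling, which also moved the median of all genes to -0.22. The remaining 13 had at least 10 scaled reads in fewer than 4 libraries. The 95% confidence interval of a tested gene had a median half-width of 1.16 log2 units, so a 2-fold change of such a gene would mostly not be detectable here.

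**Figure D1:**
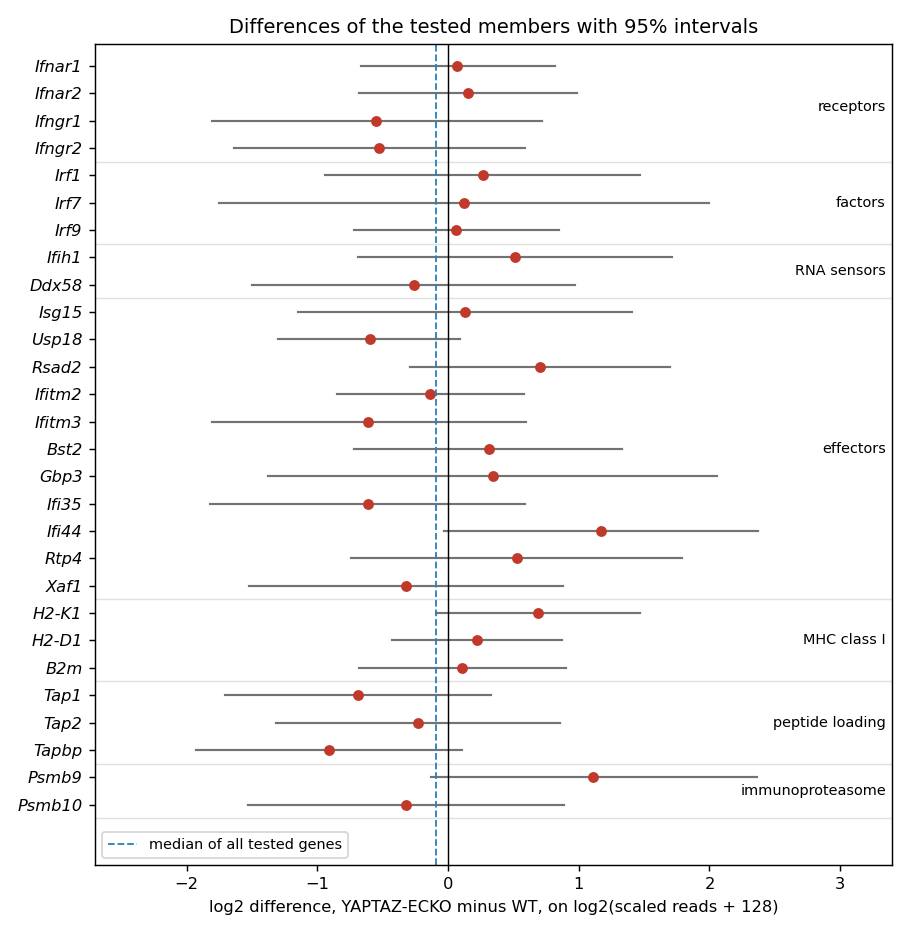
Log2 differences (YAPTAZ-ECKO minus WT, on log2(scaled reads + pseudocount), x axis) of the 28 tested genes by role, with limma 95% confidence intervals (bars); the dashed line marks the median of all tested genes at -0.09. Every interval spans 0, and the largest positive and negative points are Ifi44 at 1.17 and Tapbp at -0.91. This order depends on the pseudocount: with a pseudocount of 1 the extremes were Rsad2 at 3.68 and Tap1 at -4.24.

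All 4 interferon receptor chains were present in every library, and none passed the test. Ifnar1, the type I receptor chain that binds TYK2, stood at 1639, 2293, 2476 and 1900 scaled reads in YAPTAZ-ECKO 1 to 4, against 1939, 2437, 1339 and 2244 in WT 1 to 4. Ifnar2, the chain that binds type I interferon most tightly, stood at 1715, 1737, 1680 and 1028 in YAPTAZ-ECKO 1 to 4, against 1620, 789.6, 1998 and 1258 in WT 1 to 4. Groups overlapped for both, with log2 differences of 0.07 ± 0.36 for Ifnar1 and 0.15 ± 0.41 for Ifnar2 (SE) and 95% intervals of -0.67 to 0.82 and -0.68 to 0.99. Ifngr2, the signalling chain of the interferon gamma receptor, stood at 269, 269, 137 and 298 scaled reads in YAPTAZ-ECKO 1 to 4, against 574, 335, 378 and 339 in WT 1 to 4. All 4 YAPTAZ-ECKO values lay below all 4 WT values, by a gap of 298 to 335, and Ifngr2 was the 1 gene among the 28 tested without overlap. The same held for 2.07% of all tested genes in that direction, for 1.33% in the other direction, where it held for 0 of the 28, and for 3.4% in either. Ifngr2 averaged 243 ± 72.3 scaled reads in YAPTAZ-ECKO and 407 ± 113 in WT (SD, n = 4 each). The difference on the log2 scale, -0.53 ± 0.54 (SE), had an adjusted p of 0.99 with limma. Ifngr1, the ligand-binding chain, stood at 265, 554, 543 and 10.4 in YAPTAZ-ECKO 1 to 4, against 886, 259, 213 and 721 in WT 1 to 4, with a fitted difference of -0.55 ± 0.61 (SE) and wide overlap. Without YAPTAZ-ECKO 4 that difference was -0.04. With upper quartile scaling the differences of Ifnar1 and Ifnar2 turned to -0.12 and -0.04. Ifnar2 shares 9.46% of its exon bases with Gm21970 on the same strand, so part of its reads could belong to either gene.

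Transcription factors of the response were detected unevenly. Irf9, the DNA-binding partner of STAT2, was above 0 throughout, at 2354, 1479, 1853 and 3216 scaled reads in YAPTAZ-ECKO 1 to 4, against 2933, 2695, 1331 and 1626 in WT 1 to 4. Its groups covered nearly the same range, and the log2 difference of 0.06 ± 0.38 (SE) turned to -0.13 with upper quartile scaling. Irf1, which drives MHC class I genes after interferon gamma, stood at 1034, 1000.2, 127 and 1257 in YAPTAZ-ECKO 1 to 4, against 1300, 172, 517 and 672 in WT 1 to 4. One low library stood in each group, YAPTAZ-ECKO 3 and WT 2, and the difference was 0.27 ± 0.59 (SE), or -0.06 with voom and 1.34 with the microglia marker sum as a covariate. Irf7, which amplifies type I interferon production, was above 0 in 2 YAPTAZ-ECKO libraries (highest 1830) and 3 WT libraries (highest 612). Its difference of 0.12 ± 0.88 (SE) ran from -1.41 with a pseudocount of 1 to 1.87 with the microglia marker sum as a covariate. Stat2 was above 0 in 3 YAPTAZ-ECKO libraries, from 4.61 to 488 scaled reads, and in 2 WT libraries, at 3.45 and 30.0, and was not tested. Nlrc5, the transactivator of MHC class I genes, was listed at 0 in all 8 libraries.

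Both cytosolic RNA sensors were above 0 in every library, at low levels that varied between the libraries of a group, least for Ddx58 in WT. Ifih1, which encodes MDA5, stood at 412, 865, 155 and 425 scaled reads in YAPTAZ-ECKO 1 to 4, against 553, 94.6, 218 and 263 in WT 1 to 4. Ddx58, which encodes RIG-I, stood at 199, 278, 674 and 24.2 in YAPTAZ-ECKO 1 to 4, against 158, 329, 359 and 403 in WT 1 to 4. Groups overlapped for both, with log2 differences of 0.51 ± 0.58 and -0.26 ± 0.60 (SE).

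Of the 20 antiviral effector genes, 5 were listed at 0 in all 8 libraries: Ifit2, Mx1, Oas2, Oas3 and Ifitm1. These include the translation inhibitor Ifit2, the 2′-5′-oligoadenylate synthetases Oas2 and Oas3, and Mx1, a GTPase gene that carries an inactivating deletion in most inbred mouse strains. A further 3 were above 0 in a single library, all of them in YAPTAZ-ECKO: Ifit1 at 145 scaled reads in YAPTAZ-ECKO 2, Ifit3 at 4.62 in YAPTAZ-ECKO 4 and Mx2 at 544 in YAPTAZ-ECKO 4. Detection in a single library was not counted by group over all genes, so it cannot be read as a trait of YAPTAZ-ECKO. Gbp2, a guanylate-binding protein gene, was above 0 in WT 2 and WT 3, at 181 and 2.58 scaled reads, and listed at 0 in all YAPTAZ-ECKO libraries. Ifit3 shares 51.2% of the 50-base windows of its transcripts with Ifit3b, and reads from these windows cannot be assigned to either copy. The other 11 effectors were tested, and 6 had higher and 5 had lower values in YAPTAZ-ECKO, with a median log2 difference of 0.13.

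**Figure D2:**
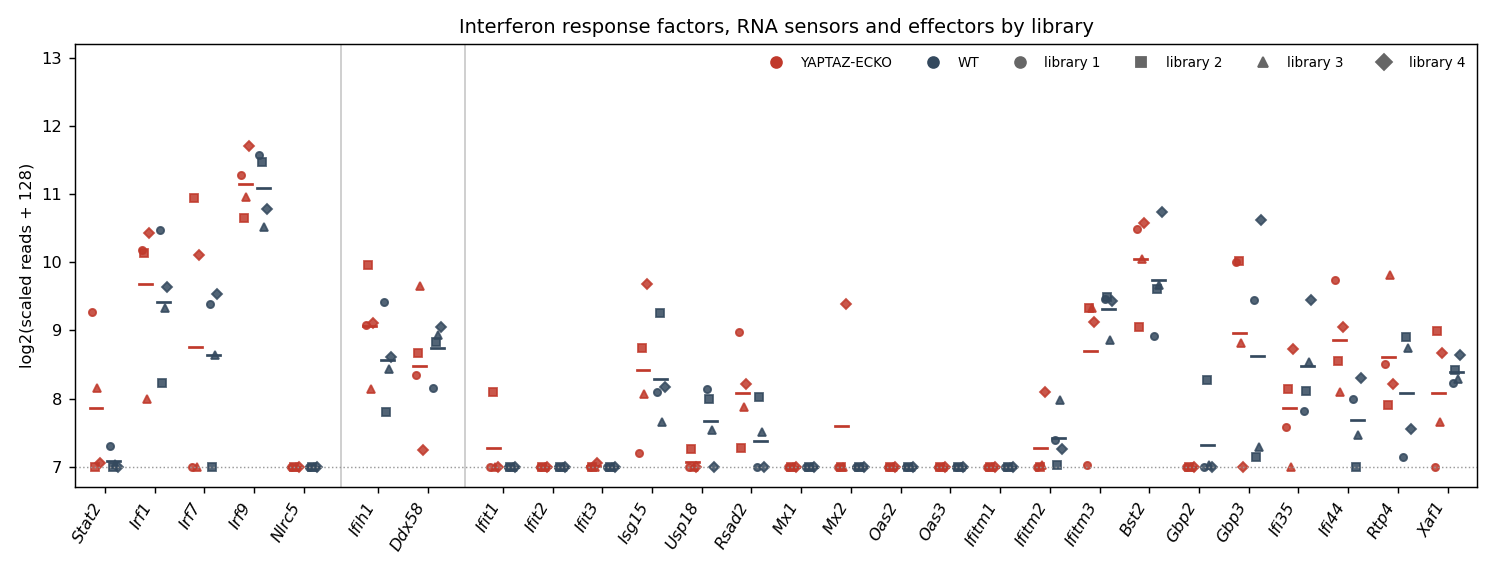
Log2(scaled reads + pseudocount) (y axis) of the factor, RNA sensor and effector genes (x axis) in each library, with YAPTAZ-ECKO in red left of WT in dark blue, marker shapes for libraries 1 to 4 and short lines for group means; the dotted line is a listed 0. Nlrc5 and 5 effector genes lie on that line in all 8 libraries, and the YAPTAZ-ECKO and WT points of Irf9 cover nearly the same range.

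Ifi44, an interferon-induced gene of the interferon-alpha response, had the smallest unadjusted p of the 28 genes. It stood at 731, 248, 147 and 400 scaled reads in YAPTAZ-ECKO 1 to 4, against 126, 0, 49.4 and 188 in WT 1 to 4. Only YAPTAZ-ECKO 3 lay within the WT range, and the means were 381 ± 255 in YAPTAZ-ECKO and 90.8 ± 82.9 in WT (SD, n = 4 each). On the log2 scale the difference was 1.17 ± 0.58 (SE; limma adjusted p = 0.928). Rsad2, which encodes the antiviral enzyme viperin, stood at 377, 27.5, 107 and 168 in YAPTAZ-ECKO 1 to 4, against 0, 132, 53.7 and 0 in WT 1 to 4, with a fitted difference of 0.70 ± 0.49 (SE) and overlapping groups.

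Usp18, the protease that removes ISG15 and restrains type I receptor signalling, ran the other way. It was above 0 in YAPTAZ-ECKO 2 alone among the YAPTAZ-ECKO libraries, at 25.7 scaled reads, and stood at 153, 127, 58.9 and 0 in WT 1 to 4, and the difference on the log2 scale was -0.60 ± 0.34 (SE; adjusted p = 0.939, limma). Isg15 itself, the ubiquitin-like modifier, stood at 20.1, 300.5, 140.5 and 692 in YAPTAZ-ECKO 1 to 4, against 145, 486, 73.6 and 160 in WT 1 to 4. Both groups spanned a wide range, and the difference was 0.13 ± 0.62 (SE), or -0.11 with a pseudocount of 1.

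Among the interferon-induced transmembrane proteins, which block virus entry, Ifitm3 was found in every library. It stood at 3.13, 514, 517 and 429 scaled reads in YAPTAZ-ECKO 1 to 4, against 574, 591, 339 and 562 in WT 1 to 4. YAPTAZ-ECKO 1 stood apart, and the log2 difference of -0.61 ± 0.58 (SE) shrank to -0.05 without it. Ifitm2 stood at 0, 0, 3.04 and 146 in YAPTAZ-ECKO 1 to 4, against 40.5, 2.92, 125 and 25.9 in WT 1 to 4, and the groups overlapped at a log2 difference of -0.14 ± 0.35 (SE). It shares 40.9% of its exon bases with Gm45717 on the same strand.

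Bst2, which encodes tetherin and holds budding virus at the cell surface, was present throughout. It stood at 1310, 403, 932 and 1394 scaled reads in YAPTAZ-ECKO 1 to 4, against 358, 652, 682 and 1583 in WT 1 to 4, and its fitted log2 difference was 0.31 ± 0.50 (SE). Its highest and its lowest value were both in WT. Gbp3, another guanylate-binding protein gene, stood at 896, 907, 325 and 0 in YAPTAZ-ECKO 1 to 4, against 571, 12.9, 28.6 and 1438 in WT 1 to 4. It varied more within each group than between them, with a difference of 0.34 ± 0.82 (SE), or -0.09 with a pseudocount of 1.

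Ifi35, Rtp4 and Xaf1 also overlapped between the groups. Ifi35, which encodes an interferon-induced leucine zipper protein, stood at 64.7, 154, 0 and 294 scaled reads in YAPTAZ-ECKO 1 to 4, against 97.6, 149, 244 and 567 in WT 1 to 4 (log2 difference -0.61 ± 0.59, SE). Rtp4, a receptor transporter gene induced by interferon, stood at 237, 113, 770.2 and 168 in YAPTAZ-ECKO 1 to 4, against 13.5, 349.7, 300.5 and 59.7 in WT 1 to 4 (0.53 ± 0.62, SE). Xaf1, a pro-apoptotic XIAP-binding factor, stood at 0, 381, 73.7 and 280.3 in YAPTAZ-ECKO 1 to 4, against 172, 215, 185 and 272 in WT 1 to 4 (-0.32 ± 0.58, SE). WT values of Xaf1 were close together, while the YAPTAZ-ECKO values lay on both sides of them. Exon bases shared with another gene made up 16.8% for Ifi35 (Gm11626, opposite strand) and 13.9% for Rtp4 (Gm45338, same strand), and the strand setting of the counting was not given in the sources used here.

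MHC class I heavy chains and their light chain were detected in all libraries. The summed level of H2-K1, H2-D1, H2-T23 and B2m was 802, 790.2, 757 and 1161 CPM in YAPTAZ-ECKO 1 to 4, against 596, 765, 750.1 and 583 CPM in WT 1 to 4. H2-K1, a classical heavy chain gene on chromosome 17 (33996017 to 34000347, minus strand, GRCm38), stood at 1292, 2699, 3413 and 3304 scaled reads in YAPTAZ-ECKO 1 to 4, against 1689, 1433, 1576 and 1355 in WT 1 to 4. In YAPTAZ-ECKO 2, 3 and 4 it lay above every WT library, and in YAPTAZ-ECKO 1 below every one. The means were 2677 ± 976 in YAPTAZ-ECKO and 1513 ± 149 in WT (SD, n = 4 each), and the log2 difference was 0.69 ± 0.38 (SE; limma adjusted p = 0.928). Without YAPTAZ-ECKO 1 the groups no longer overlapped, as for 3.17% of all genes tested without that library and higher in YAPTAZ-ECKO, and the difference was 0.99, with an adjusted p of 0.728 (limma).

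H2-D1, the other classical heavy chain measured (35262730 to 35267499, plus strand), stood at 4754, 4240.4, 3187 and 6427 scaled reads in YAPTAZ-ECKO 1 to 4, against 3211, 4656, 4634 and 3194 in WT 1 to 4. YAPTAZ-ECKO held both the highest and the lowest value, with a log2 difference of 0.22 ± 0.31 (SE) and a 95% interval of -0.43 to 0.87. B2m, the light chain shared by all class I molecules, stood at 2247, 1497, 1264 and 2882 in YAPTAZ-ECKO 1 to 4, against 1211, 2089.6, 1931 and 1822 in WT 1 to 4, with a fitted difference of 0.11 ± 0.38 (SE) that turned to -0.09 with upper quartile scaling. The non-classical H2-T23, which encodes Qa-1, was near the floor, at 1.61, 2.64, 9.19 and 6.91 in YAPTAZ-ECKO 1 to 4, against 22.1, 31.4, 6.05 and 4.97 in WT 1 to 4, and was not tested. Heavy chain genes are near-identical in places: 9.63% of the 50-base windows of H2-K1, 12.8% of those of H2-D1 and 13.6% of those of H2-T23 also occur in transcripts of other genes. How the authors assigned such reads was not given in the sources used here.

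**Figure D3:**
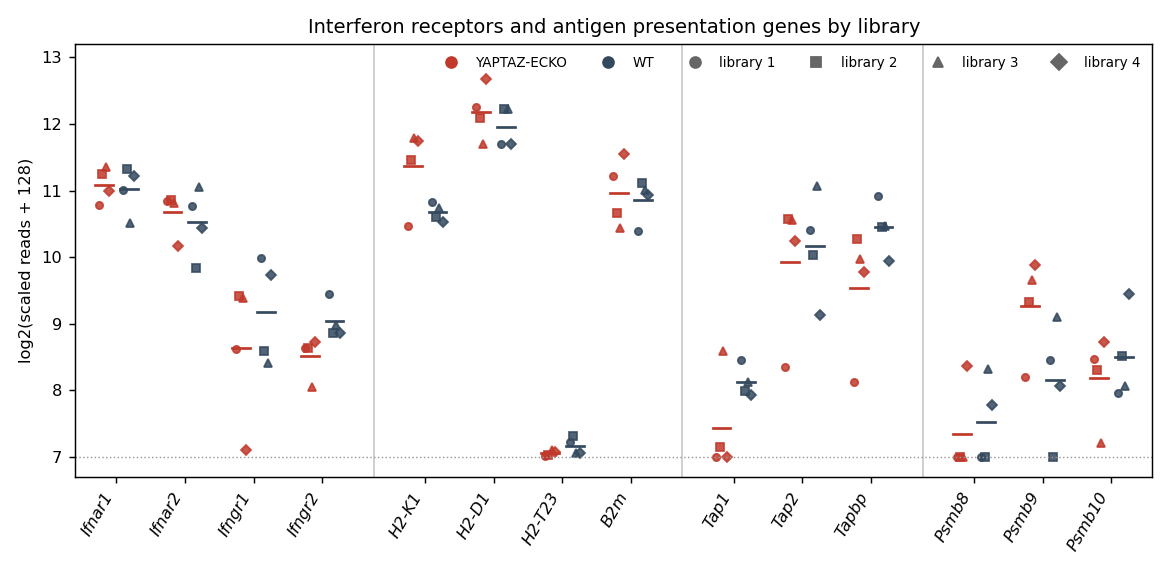
Log2(scaled reads + pseudocount) (y axis) of the receptor, MHC class I, peptide loading and immunoproteasome genes (x axis) in each library, with YAPTAZ-ECKO in red left of WT in dark blue, marker shapes for libraries 1 to 4 and short lines for group means; the dotted line is a listed 0. H2-K1 lies above all WT points in YAPTAZ-ECKO 2 to 4 and below them in YAPTAZ-ECKO 1, and Ifngr2 lies lower in all 4 YAPTAZ-ECKO libraries than in WT.

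The 3 peptide loading genes had lower fitted values in YAPTAZ-ECKO, none past the test, and Tap2 turned without YAPTAZ-ECKO 1 or without WT 3. Tap1 and Tap2 encode the subunits of the transporter that moves peptides into the endoplasmic reticulum, and Tapbp encodes tapasin, which holds class I molecules to it. Tapbp stood at 151, 1109.7, 872 and 752 scaled reads in YAPTAZ-ECKO 1 to 4, against 1808, 1281, 1285 and 855 in WT 1 to 4. Only YAPTAZ-ECKO 2 and 3 overlapped the WT range, and the log2 difference was -0.91 ± 0.49 (SE; limma adjusted p = 0.928). Tap1 stood at 0, 14.2, 258 and 0 in YAPTAZ-ECKO 1 to 4, against 225, 126, 151 and 115 in WT 1 to 4, with a fitted difference of -0.69 ± 0.49 (SE; limma adjusted p = 0.981). Its highest value and its lowest values were both in YAPTAZ-ECKO. Tap2 stood at 197, 1395, 1373 and 1086 in YAPTAZ-ECKO 1 to 4, against 1227, 917, 2029.6 and 434 in WT 1 to 4, with a fitted difference of -0.23 ± 0.53 (SE).

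YAPTAZ-ECKO 1 had the lowest sum of the 3 loading genes, 33.7 CPM against 169 to 240.5 CPM in the other YAPTAZ-ECKO libraries and 128.4 to 319 CPM in WT. Without YAPTAZ-ECKO 1 the difference of Tapbp was -0.44 and that of Tap2 turned to 0.30, while Tap1 stood at -0.54. YAPTAZ-ECKO 1 also had the fewest implied reads, 6.64 M, the lowest endothelial marker sum, 16742 CPM, and the highest erythroid marker sum, 4669 CPM against 1256 to 4041 CPM in the other YAPTAZ-ECKO libraries and 1286 to 3501 CPM in WT. The part of these in the result was not tested. Tapbp shares 24.9% of its exon bases with Gm19412 on the opposite strand, and Tap2 shares 14.1% with Gm15821 on the opposite strand.

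Immunoproteasome subunits replace constitutive proteasome subunits and change which peptides are cut. Psmb9 stood at 166, 516, 676 and 812 scaled reads in YAPTAZ-ECKO 1 to 4, against 222, 0, 419.9 and 140.3 in WT 1 to 4. YAPTAZ-ECKO 2, 3 and 4 lay above all WT libraries and YAPTAZ-ECKO 1 among them, with means of 543 ± 279 in YAPTAZ-ECKO and 196 ± 175 in WT (SD, n = 4 each). The log2 difference was 1.11 ± 0.60 (SE, limma adjusted p = 0.928), and 1.46 without YAPTAZ-ECKO 1 (limma adjusted p = 0.753). Without that library the groups did not overlap, as for 3.17% of all genes then tested and higher in YAPTAZ-ECKO. Psmb9 and Tap1 lie head to head on chromosome 17 (34181987 to 34187764, minus strand, and 34187553 to 34197225, plus strand), and exons at their starts share 212 bases on opposite strands. Their fitted differences had opposite signs all the same, 1.11 and -0.69. Psmb10 stood at 228, 189.8, 19.9 and 294 in YAPTAZ-ECKO 1 to 4, against 121, 238, 141 and 572 in WT 1 to 4, with a fitted difference of -0.32 ± 0.59 (SE) and overlapping groups. Psmb8 was above 0 in YAPTAZ-ECKO 4 (202), WT 3 (191) and WT 4 (91.5) and was not tested.

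**Figure D4:**
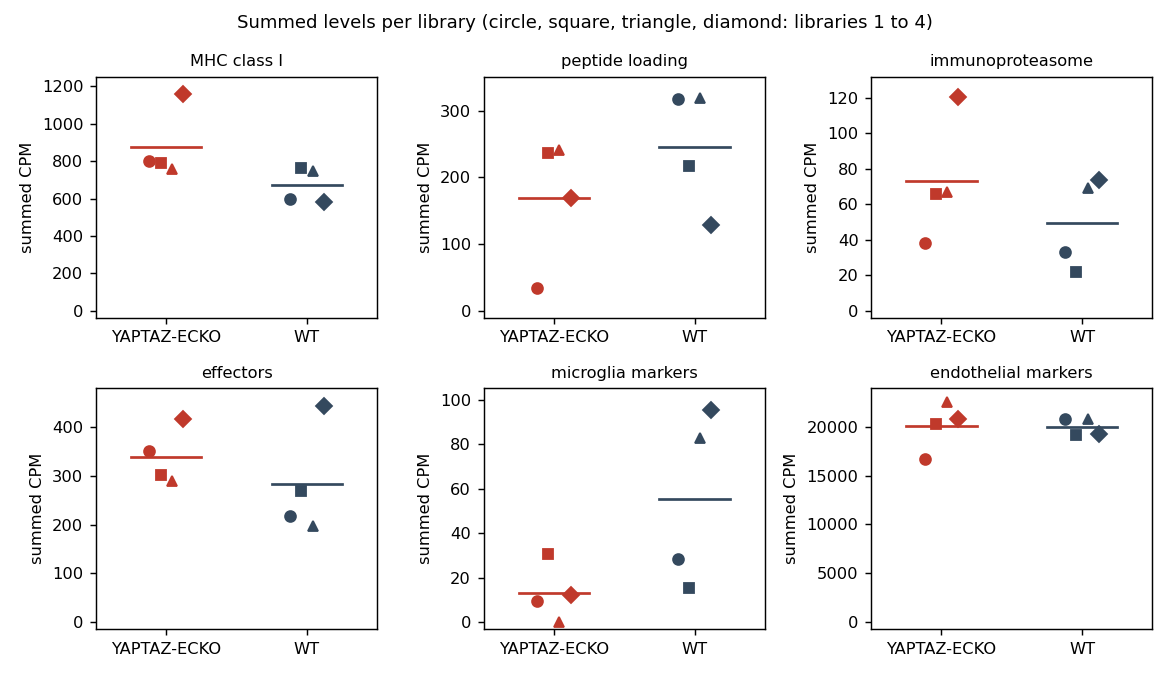
Summed CPM per library (y axis, from 0) of 4 gene groups and of microglia and endothelial markers, with YAPTAZ-ECKO in red left of WT in dark blue, marker shapes for libraries 1 to 4 and lines for group means. The MHC class I sum is highest in YAPTAZ-ECKO 4 at 1161 CPM, the peptide loading sum is lowest in YAPTAZ-ECKO 1 at 33.7 CPM, and the microglia sum stays under 100 CPM in every library.

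The extremes of the 28 tested genes were spread over the libraries. The lowest value of a gene, ties included, was in YAPTAZ-ECKO 1 for 10 of the 28, in YAPTAZ-ECKO 3 for 7 and in each other library for 1 to 5. The highest value was in YAPTAZ-ECKO 4 for 6, in YAPTAZ-ECKO 3 and WT 1 for 5 each and in WT 2 for 1. These counts were not made over all tested genes, so they cannot be read as a trait of the 28. YAPTAZ-ECKO 1 had the fewest symbols above 0 of all libraries, 7538, and 5 of its 10 lowest values were listed 0s. A library's median deviation from the mean of each gene ran from -0.26 (YAPTAZ-ECKO 1) to 0.41 (YAPTAZ-ECKO 4) in log2 units, and the WT libraries lay between -0.01 and 0.12. Over all tested genes the same median was -0.21 in YAPTAZ-ECKO 1 and -0.01 in YAPTAZ-ECKO 4. Within groups the 28 genes had a median SD of 0.688 log2 units, beside 0.689 over all tested genes. A gene could be listed at 0 in 1 library and stand at 100 scaled reads or more in another of the same group. This was the case for 10 of the 41 genes in YAPTAZ-ECKO and 7 in WT, and was not counted over all genes. Symbols above 0 numbered 7538 to 8762 in YAPTAZ-ECKO libraries and 8621 to 9720 in WT libraries.

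Microglia and leukocytes express many of these genes, and their markers were scarce. The 15 microglia markers summed to 0.145 to 30.9 CPM in YAPTAZ-ECKO and 15.6 to 95.4 CPM in WT. P2ry12, Tmem119, C1qa, Siglech, Trem2, Tyrobp and Itgam were listed at 0 in all 8 libraries. The 12 leukocyte markers summed to 0.661 to 49.4 CPM in YAPTAZ-ECKO and 7.74 to 41.4 CPM in WT, with Ptprc, the pan-leukocyte marker CD45, and the class II genes H2-Aa, H2-Ab1, H2-Eb1 and Cd74 listed at 0 throughout. Outside WT 3 these leukocyte sums came from Ly6c2 alone, and in WT 3 S100a9 and Lyz2 were also above 0. With the microglia sum as a covariate, 0 of the 28 genes and 0 of all tested genes were called (limma), Wwtr1 included, and 3 of the 28 had an unadjusted p under 0.05, against 5.28% of all tested genes. Since these are bulk samples, fewer cells of a type and less RNA per cell cannot be told apart.

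The wider pathway was read from a list of 120 other genes chosen by role. Of these, 70 were tested, 0 rose and 0 fell (limma), and 2 had an unadjusted p under 0.05, against 5.47% of all tested genes. Higher values in YAPTAZ-ECKO were seen for 35 and lower values for 35, against 43.1% of all tested genes with higher values, and the median log2 difference was 0.00. None of the 10 interferon genes on the list was above 0 in any library. By role, higher values were found for 7 of 16 signalling genes, 4 of 10 sensing genes and 19 of 31 effectors. The same held for 5 of 13 other genes of class I presentation, a list that includes chaperones and proteasome subunits.

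Shisa5, an endoplasmic reticulum protein gene linked to interferon and p53 responses, had the smallest p on that list. It stood at 7697, 11521, 6979.95 and 7886 scaled reads in YAPTAZ-ECKO 1 to 4, against 6728, 5989, 4814 and 3288 in WT 1 to 4. All 4 YAPTAZ-ECKO values lay above all WT values, and Shisa5 was the 1 gene of the 70 without overlap, beside 1.33% of all tested genes in that direction and 3.4% in either. The log2 difference was 0.72 ± 0.29 (SE; limma adjusted p = 0.823). Tmem173, which encodes the DNA-sensing adaptor STING, stood at 526, 585, 663 and 0 in YAPTAZ-ECKO 1 to 4, against 982, 984, 447 and 1877 in WT 1 to 4, with a fitted difference of -1.23 ± 0.59 (SE; limma adjusted p = 0.91). The groups overlapped, since WT 3 lay below 3 of the YAPTAZ-ECKO libraries, and the difference was -0.61 without YAPTAZ-ECKO 4.

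Il10rb, a receptor chain of the interferon lambda complex, stood at 0, 402, 641 and 796 scaled reads in YAPTAZ-ECKO 1 to 4, against 1129, 668, 834 and 921 in WT 1 to 4 (log2 difference -1.10 ± 0.57, SE). Mavs, the mitochondrial adaptor of both RNA sensors, stood at 1946, 3.54, 227 and 1011 in YAPTAZ-ECKO 1 to 4, against 595, 5.78, 0 and 0 in WT 1 to 4 (1.53 ± 0.80, SE). H2-Q4, a non-classical class I gene, stood at 84.7, 43.4, 266 and 192 in YAPTAZ-ECKO 1 to 4, against 1.80, 27.3, 65.8 and 0 in WT 1 to 4 (0.80 ± 0.42, SE). For Daxx, a nuclear repressor induced by interferon, values were 644, 439.6, 436 and 1303 in YAPTAZ-ECKO 1 to 4, against 197, 195, 175 and 684 in WT 1 to 4 (0.94 ± 0.55, SE). Each of these 4 overlapped between the groups, and their limma adjusted p-values lay at 0.928 or above. Without YAPTAZ-ECKO 1 the difference of Il10rb was -0.47.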

How the data were processed

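The authors deposited 1 table per library, with gene symbols and log2 values, made with Bowtie2, edgeR and the mm10 build per the submitters' processing notes; neither the counting tool nor the annotation was given in the sources used here. Libraries came from 500 ng of total RNA with a Lexogen Quant-Seq kit, per the labels' protocols. The unit was read from the values: returned from log2, with each listed 0 left as 0, 88.8% to 100% of values under 12 lay within 0.1 of a whole multiple of a step that differs between libraries. A library total divided by its step gave the implied reads. Of 24421 symbols, 24394 were shared by all tables.

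Genes reaching 10 scaled reads in 4 or more libraries were tested with limma 3.58.1 (R 4.3.3, with trend and robust options, no covariates) on log2(scaled reads + pseudocount), pseudocount 2 to the power 7, with Benjamini-Hochberg adjustment over all genes and 0.05 as threshold. Fold changes on this scale understate low genes. Alternatives were 14 other scalings, filters, pseudocounts and models and leaving out each library. The functions were tested on simulated data. Positions come from GENCODE M21 (GRCm38), which matched all 41 genes, and promoters from RefSeq. Every library's value is given for genes above 0 in at least 6 libraries and for the 8 with the smallest p; from the wider list the 6 smallest p are named. The genes, lists, pseudocount and tests were chosen with earlier results of these data known.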

Additional observations from a re-analysis of the deposited data

Results flagged for a closer look

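In 15 of 66 groups of 4 values (members by group, groups with identical values left out), 1 library stood far from the other 3 on the log2(scaled reads + pseudocount) scale, by a gap to its nearest neighbour over Dixon's 95% critical share of the group's range. For normally distributed values about 1 in 20 such groups would be flagged, or 3.3 here. Values with listed 0s are not so distributed, and the share over all genes was not computed. The 15 therefore cannot be read as more than usual, in these genes or in either group. In 5 of the 15 the other libraries were all listed at 0, and 12 were in YAPTAZ-ECKO and 3 in WT. A low library was found for Ifnar2 in YAPTAZ-ECKO 4 (1028 scaled reads, the others 1680 to 1737), Ifngr2 in YAPTAZ-ECKO 3 (137, the others 269 to 298), Irf1 in YAPTAZ-ECKO 3 (127, the others 1000.2 to 1257), Ifitm3 in YAPTAZ-ECKO 1 (3.13, the others 429 to 517), Tap2 in YAPTAZ-ECKO 1 (197, the others 1086 to 1395) and Ifitm3 in WT 3 (339, the others 562 to 591). A high library was found for Ifitm2 in YAPTAZ-ECKO 4 (146, the others 0 to 3.04), Tap1 in YAPTAZ-ECKO 3 (258, the others 0 to 14.2), Stat2 in WT 1 (30.04, the others 0 to 3.45) and Gbp2 in WT 2 (181, the others 0 to 2.58). A single library above 0 in YAPTAZ-ECKO was found for Ifit1 (145), Ifit3 (4.62), Usp18 (25.7), Mx2 (544) and Psmb8 (202). The cause was not tested.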

How the results depend on the processing

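None of the 41 genes was called under any of the 22 alternatives, of which 8 left out a library; the lowest adjusted p was 0.651 (limma, Tap1 without YAPTAZ-ECKO 3). At an unadjusted p under 0.05 the alternatives gave 0 to 3 of the tested genes. Ifngr2 stayed without overlap in all. Without a library, 0 to 2 genes were without overlap higher and 1 to 3 lower in YAPTAZ-ECKO: H2-K1 and Psmb9 joined without YAPTAZ-ECKO 1, Ifi44 and Tap1 without YAPTAZ-ECKO 3, Ifitm3 without WT 3, and Ifi44, Tapbp and Usp18 without WT 4. Over all tested genes, leaving out a library gave shares without overlap of 2.05% to 3.17% higher and 2.92% to 4.7% lower, above the shares with all 8. Higher values were found for 12 to 20 of the 26 to 35 genes tested. The median difference of the tested genes lay at -0.13 to 0.12 without a library, and at -0.10 with upper quartile scaling, -0.10 with a pseudocount of 1 and -0.02 with voom. Wwtr1 was not called with no filter (-2.45), a pseudocount of 1 (-2.62) or 16 (-2.6), voom (-2.38), limma without trend and robust options (-2.45) or the microglia covariate (-2.30); without a library it lay at -2.83 to -1.99, and was not called without YAPTAZ-ECKO 4, WT 1 or WT 2. All-gene calls lay at 0 to 6 lower and 0 to 1 higher.

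Direction turned with upper quartile scaling for B2m (-0.09), Ifnar1 (-0.12), Ifnar2 (-0.04) and Irf9 (-0.13). It turned for Irf7 with a pseudocount of 1 (-1.41), 16 (-0.44) and 64 (-0.03) and with voom (-0.76), for Isg15 with 1 (-0.11) and 16 (-0.00), for Gbp3 with 1 (-0.09), and for Irf1 with voom (-0.06). The microglia covariate turned Ifi35 (0.16), Ifitm2 (0.08), Ifnar1 (-0.11), Irf9 (-0.17), Psmb10 (0.31), Rtp4 (-0.28) and Xaf1 (0.14). Leaving out a library gave B2m -0.09 to 0.29, Ddx58 -0.65 to 0.14, Gbp3 -0.16 to 1.0, Ifnar1 -0.09 to 0.18, Ifnar2 -0.08 to 0.33, Irf1 -0.13 to 0.83, Irf7 -0.60 to 0.71, Irf9 -0.13 to 0.23, Isg15 -0.29 to 0.54, Psmb10 -0.50 to 0.00, Tap2 -0.57 to 0.30 and Xaf1 -0.62 to 0.04. The cause was not tested. The other 13 tested genes kept their direction wherever they were tested, 12 of them in all 22 alternatives and Usp18 in 17.

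Deviations from the group means had r of -0.0433 to 0.0763 between same-numbered libraries and -0.0803 to 0.066 between libraries with different numbers. Such deviations sum to 0 within each group, which keeps r near 0 on average. They therefore cannot decide if the numbers pair libraries. With the replicate number as a block 0 of the 41 genes were called, with 1 higher and 4 lower calls over all genes. With these values 13 of the 41 genes did not reach the minimum for testing, and the part of depth in that was not tested.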
